A study of Mus musculus with 13 samples.

Results

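The pericentromere-associated domains (PADs) of in vitro-derived neural precursor cells (NPCs) were set against those of mouse thymus, fragment end by fragment end. Each end on Chromosomes 1 to 19 was placed in 1 of 4 classes by its call in NPCs and its call in thymus, written in that order as PAD/PAD, PAD/nPAD, nPAD/PAD and nPAD/nPAD, where nPAD stands for non-PAD. Consecutive ends of the same class were merged, with borders midway between ends, into 3535 regions that span 2414 Mb and hold 374542 of the 399232 called ends. The calls of the whole series, over its 4 cell types and 20 chromosomes, merge into 8554 regions.

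Mouse pericentromeres consist of tandem major satellite repeats that are kept as constitutive heterochromatin, and those of several chromosomes cluster in the nucleus as chromocenters. Sat4C captures the DNA that lies next to them: crosslinked chromatin is cut and ligated, and the fragments joined to satellite DNA are sequenced at their ends. A PAD is thus a stretch of a chromosome arm that is often found next to a chromocenter. Sequence near chromocenters is classically regarded as a silent compartment, although association and expression are separate properties. Neural precursors divide and can give rise to neurons and glia, whereas the thymus consists mostly of developing T cells held in an epithelial stroma.

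NPCs were represented by 2 replicates of a line derived in culture from IB10 embryonic stem cells (ESCs) of the 129/Ola background. Thymus came from 3 adult male mice of the C57BL/6 strain, and each mouse was sequenced on both the GAII and the HiSeq platform, for 6 sets of reads in all. None of the samples carried a transgene or received a treatment per the labels. Cell type, strain, and culture against tissue differed together between the groups and cannot be told apart, the NPC line is a single line, and the thymus is a mixed tissue. The deposited calls are a consensus per cell type, so no difference could be set against the spread between mice or cultures and no test was made. Chromosomes are not biological replicates, and each SD over them describes the calls only. The file holds no expression values, so the labels could not be checked against marker genes. The depth behind a call is unknown. The NPC column stood apart from the other 3 in that its PAD calls bore almost no relation to gene density or GC content, and since no reads or replicate calls are in the file, the reason was not tested.

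The borders of the largest region of each opposed class show what a call is attached to, and their fragment ends are printed here as the first 60 bases from the start of the end, on the plus strand of NCBIM37 (mm9). Capitals mark the restriction site at which the end begins, CAATTG for MfeI or CATG for NlaIII. Of all ends, 97.8% began at either site, and an end without capitals did not. The largest PAD/nPAD region (Chromosome 12, 105321359 to 114440254) was entered between neighboring ends that lay close together, whereas its last border fell in a wider stretch without ends. The largest nPAD/PAD region (Chromosome 14, 3291202 to 8542064) began at the first called end of its chromosome, so that it has a single border.
chr12:105321304-105321363, nPAD/nPAD: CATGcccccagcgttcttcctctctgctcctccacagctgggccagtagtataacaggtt
chr12:105321414-105321473, PAD/nPAD: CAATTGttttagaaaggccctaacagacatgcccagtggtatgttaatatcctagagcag
chr12:114424853-114424912, PAD/nPAD: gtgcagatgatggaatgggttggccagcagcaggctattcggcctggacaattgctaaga
chr12:114455654-114455713, nPAD/nPAD: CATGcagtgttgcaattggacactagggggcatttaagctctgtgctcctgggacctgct
chr14:8536855-8536914, nPAD/PAD: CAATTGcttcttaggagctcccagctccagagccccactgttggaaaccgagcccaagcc
chr14:8547274-8547333, nPAD/nPAD: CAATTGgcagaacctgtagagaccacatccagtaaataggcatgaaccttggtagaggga

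NPCs and thymus had opposed calls over 49.3% of the autosomal sequence. PAD/nPAD was the largest class, with 851 Mb or 35.3% of the sequence. PAD/PAD covered 822 Mb (34.0%), nPAD/nPAD 403 Mb (16.7%) and nPAD/PAD 339 Mb (14.0%). Of the opposed sequence, 71.6% was PAD in NPCs, which goes with the wider PAD coverage of NPCs. The coverages of the NPC and thymus columns alone, multiplied, give 36.0% PAD/nPAD and 14.8% nPAD/PAD. They give 33.3% PAD/PAD and 15.9% nPAD/nPAD, so each class had about the size that coverage alone gives.

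The same call was made over 50.7% of the sequence. PADs covered 69.3% of the autosomes in NPCs and 48.1% in thymus, and the product of these shares alone gives 49.2% of sequence with the same call. Agreement therefore exceeded this arithmetic level by 1.46 percentage points, with a kappa of 0.029 (0 when agreement equals the product, 1 when all calls are the same) and a phi coefficient of 0.032. Of the sequence that was PAD in NPCs, 49.1% was also PAD in thymus, and of the sequence that was non-PAD in NPCs, 45.7% was. In the other direction, NPCs had a PAD call over 70.8% of thymus PADs and over 67.9% of thymus non-PADs.

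The pairs of columns that share the thymus calls or the NPC calls gave larger values. Astrocytes (ACs) and thymus had the same call over 76.0% of the autosomes (product 49.997%, phi 0.52), and ESCs and thymus over 68.1% (product 49.9%, phi 0.36). NPCs had the same call as ESCs over 66.9% (product 51.1%, phi 0.34) and as ACs over 64.7% (product 50.03%, phi 0.32). Each of these comparisons was above its product on all 19 autosomes, whereas NPCs against thymus was above it on 12. These pairs share columns of calls, and their differences were not tested.

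Agreement varied between the autosomes, with a mean of 50.8% ± 4.76 (SD, n = 19 chromosomes). It was highest on Chromosome 2, with 58.3% against a product of 52.4%, and lowest on Chromosome 7, with 39.5% against 47.8%. The phi coefficient ran from -0.18 on Chromosome 7 and -0.12 on Chromosome 16 to 0.19 on Chromosome 9, and was below 0 on Chromosomes 1, 4, 7, 8, 13, 14 and 16. On Chromosome 7, NPC calls had a phi of 0.46 with ESCs and of 0.36 with ACs. Thymus calls also had low values there with the other columns, 0.24 with ACs (0.52 over all autosomes) and 0.18 with ESCs (0.36). The low agreement on Chromosome 7 was thus not particular to NPCs.

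**Figure D1:**
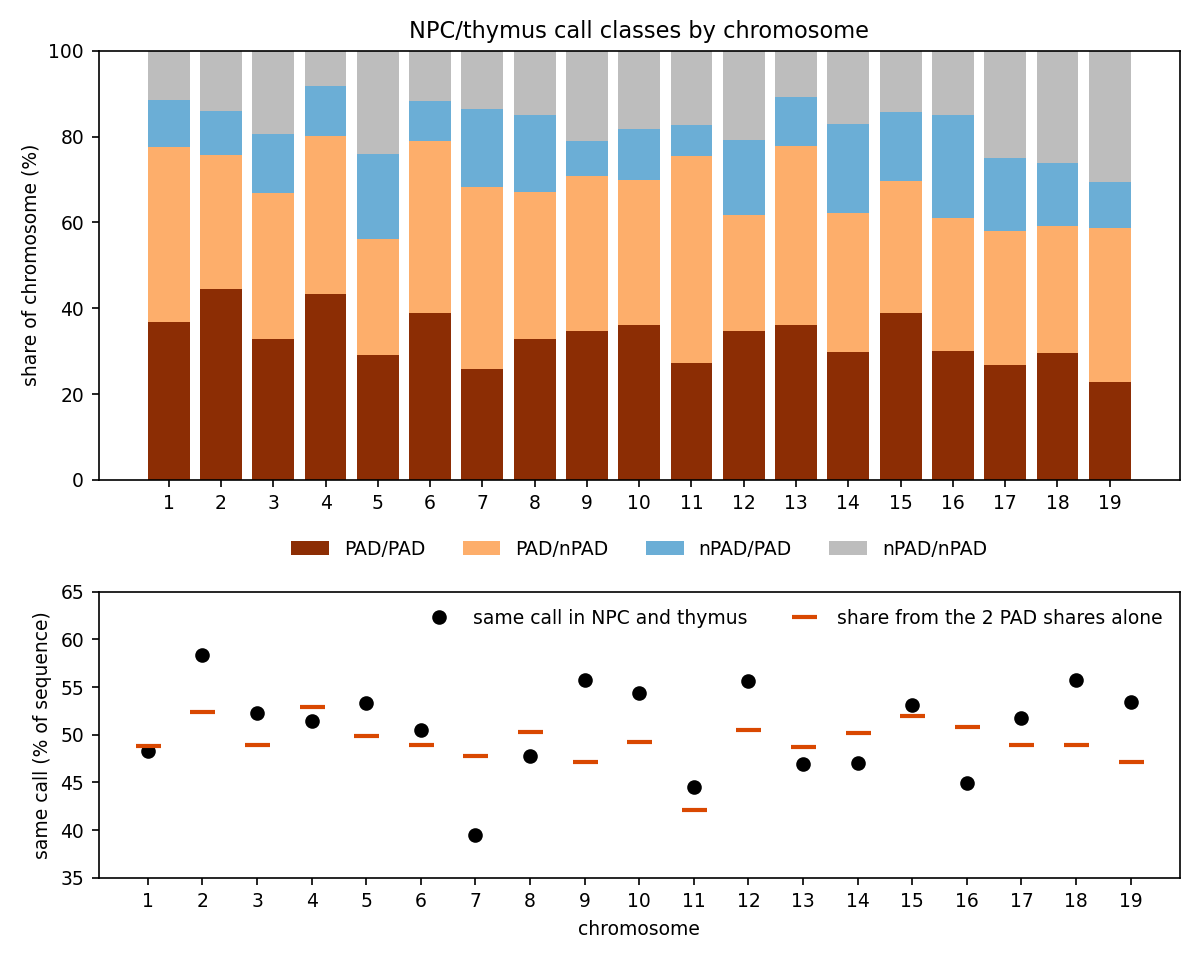
Share of each autosome (percent of called sequence) in the 4 classes of NPC/thymus calls, above, and below it the share with the same call (points) beside the share given by the PAD shares of NPCs and thymus alone (bars). The points lie between 39.5% on Chromosome 7 and 58.3% on Chromosome 2, and 12 of 19 are above their bar.

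The classes took different shares of single chromosomes. PAD/nPAD was highest on the gene-rich Chromosome 11, with 48.2%, and lowest on Chromosome 12, with 27.0%. NPC/thymus PAD/PAD ran from 22.8% on Chromosome 19 to 44.4% on Chromosome 2. The nPAD/PAD class was rarest on Chromosome 11 (7.21%) and most common on Chromosome 16 (23.9%), and nPAD/nPAD ran from 8.19% on Chromosome 4 to 30.6% on Chromosome 19. PAD coverage in NPCs was 56.2% on Chromosome 5 and 80.2% on Chromosome 4 at its ends, and in thymus 33.5% on Chromosome 19 and 55.1% on Chromosome 15.

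Genes followed the thymus call. PAD/nPAD regions held 12.8 protein-coding genes per Mb and nPAD/nPAD regions 12.3, whereas PAD/PAD regions held 4.77 and nPAD/PAD regions 4.70. With the thymus call held at PAD or at non-PAD, the densities by NPC call lay close together. Gene density was higher in PAD/nPAD than in PAD/PAD on 19 of 19 autosomes, by a log2 ratio of 1.49 ± 0.51 (SD, n = 19 chromosomes). It was also higher in nPAD/nPAD than in nPAD/PAD on 19 of 19, by 1.58 ± 0.79. Between the classes that differ in the NPC call only, the log2 ratio was 0.08 ± 0.32 for PAD/nPAD over nPAD/nPAD and 0.16 ± 0.54 for PAD/PAD over nPAD/PAD, each above 0 on 10 autosomes and below 0 on 9.

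**Figure D2:**
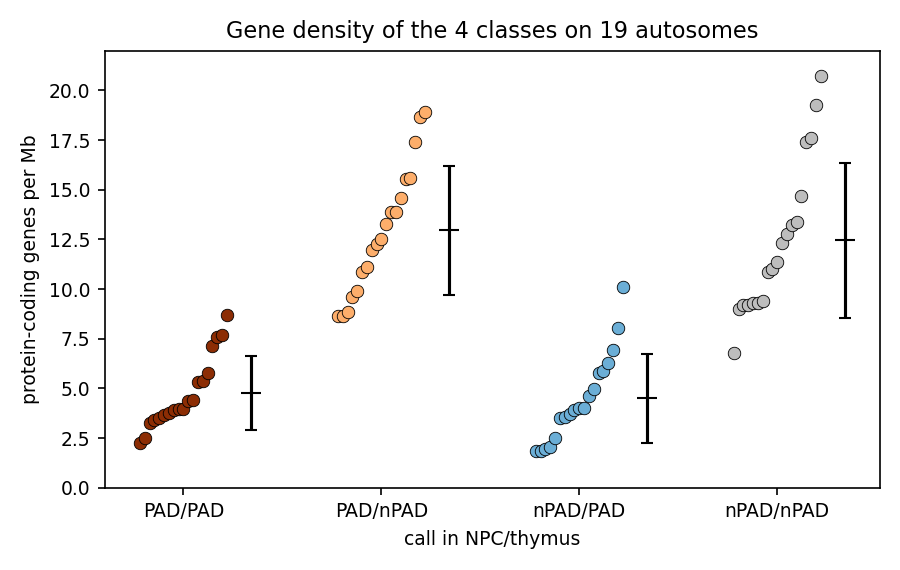
Protein-coding genes per Mb in the 4 classes, with a point for each of 19 autosomes and the mean ± SD over autosomes beside them. The means were 4.77 in PAD/PAD, 13.0 in PAD/nPAD, 4.50 in nPAD/PAD and 12.5 in nPAD/nPAD.

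The directly opposed classes were set apart by their genes. PAD/nPAD exceeded nPAD/PAD in gene density on 19 of 19 autosomes, by a log2 ratio of 1.65 ± 0.79, with the smallest ratio on Chromosome 14 (0.25) and the largest on Chromosome 11 (3.32). Chromosome 11 held 1070 genes in PAD/nPAD regions and 16 in nPAD/PAD regions. On Chromosome 14 the numbers were 379 and 203. Of these 203, 111 lay in a single 5.25-Mb region that rested on 47 fragment ends. A total of 10923 genes lay in PAD/nPAD regions, 51.0% of the 21397 autosomal protein-coding genes that could be placed, each by the middle of its longest transcript. PAD/PAD held 18.3% of them, nPAD/PAD 7.44% and nPAD/nPAD 23.2%. Opposed calls covered 58.5% of genes and 49.3% of sequence. NPC PADs held 69.4% of genes and 69.3% of sequence, and thymus PADs 25.7% of genes and 48.1% of sequence. Gene shares this unlike bring many opposed calls by themselves, so the 58.5% is not read as an enrichment of genes in opposed sequence.

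Windows of 1 Mb showed the same from the side of the genome. In 247 windows without a protein-coding gene, 92.4% of the sequence was PAD in thymus, and this share fell step by step to 21.4% in 292 windows with 20 genes or more. In NPCs the share was 69.7% in the first and 68.0% in the second, and lay between 67.2% and 70.7% in the windows of intermediate density. The AC share went from 82.2% to 29.6% and the ESC share from 68.1% to 45.3%. Across 2415 windows, Pearson's r between genes per Mb and PAD share was -0.41 for thymus and -0.01 for NPCs, as a description over neighboring windows of the same libraries.

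Agreement between NPCs and thymus fell accordingly as genes became denser. It was 67.0% of the sequence in windows without genes, 59.1% with 1 to 4 genes, 48.9% with 5 to 9, 38.6% with 10 to 19 and 38.6% with 20 or more. The products of the PAD shares in the same windows were 66.7%, 57.7%, 45.3%, 38.7% and 39.7%. PAD/PAD made up 64.6% of gene-free windows and 14.0% of the densest ones, and PAD/nPAD 5.17% and 54.0%. The nPAD/PAD class went from 27.8% to 7.39%.

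Base composition separated the columns too. In the fifth of windows with the lowest GC content (35.7% to 38.5%), thymus was PAD over 94.1% of the sequence and NPCs over 69.5%. In the fifth with the highest (45.0% to 53.7%), thymus was PAD over 2.91% and NPCs over 68.7%. When the windows of each autosome were split at their median GC content, the thymus share was higher in the GC-poor part on 19 of 19 autosomes, by 62.0 ± 7.15 percentage points (SD, n = 19 chromosomes). The NPC share was higher there on 13 autosomes and lower on 6, by 2.29 ± 10.5 points, from -19.6 on Chromosome 7 to 17.1 on Chromosome 19. ACs (47.8 ± 12.3) and ESCs (30.1 ± 13.4) were higher in the GC-poor part on all 19, so that the NPC column stood apart from the other 3.

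**Figure D3:**
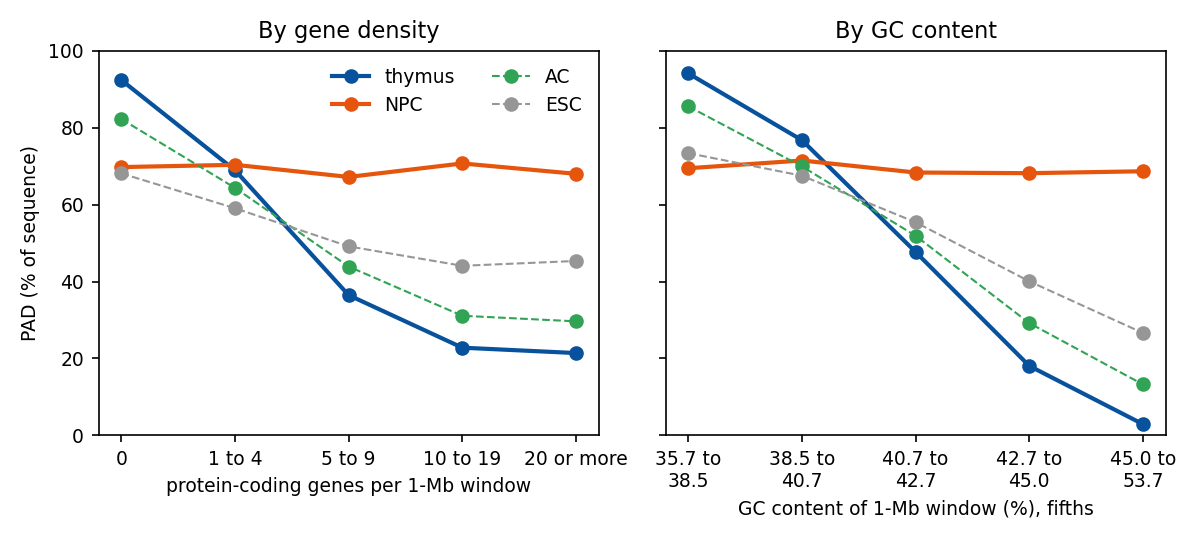
Share of sequence called PAD in 1-Mb windows grouped by the number of protein-coding genes (left) and by GC content in 5 bins of equal number (right), with a line for each cell type. The thymus line falls from 92.4% to 21.4% and from 94.1% to 2.91%, and the NPC line stays between 67.2% and 71.5%.

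The density of fragment ends, which sets how finely a call can be placed, also moved with the calls. PAD/PAD regions had 172 ends per Mb, nPAD/PAD 161, PAD/nPAD 143 and nPAD/nPAD 140. From the fifth of windows with the fewest ends to the fifth with the most, the PAD share rose from 24.3% to 78.6% in thymus and from 62.7% to 71.4% in NPCs. The part of end density in the classes was not tested. GC content was 39.3% in PAD/PAD and in nPAD/PAD, 44.5% in PAD/nPAD and 44.3% in nPAD/nPAD. Gene bodies filled 27.5% and 26.5% of the thymus PAD classes and 50.7% and 49.0% of the thymus non-PAD classes, in the same order.

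The classes also differed between the 2 ends of the chromosomes. Mouse chromosomes are acrocentric, so the first called sequence lies next to the centromere. In the first 10 Mb of each autosome, NPCs were PAD over 71.9% ± 22.8 and thymus over 73.7% ± 22.3 (SD, n = 19 chromosomes), and the calls were the same over 58.9%. In the last 10 Mb, NPCs were PAD over 64.4% ± 15.6 and thymus over 21.4% ± 16.3, and agreement was 42.5%. These shares of agreement were not set beside the product of the PAD shares of the same sequence. They change with thymus coverage alone, so they are not read as a closer match of the calls near the centromere. PAD/nPAD made up 19.6% of the first 10 Mb and 50.2% of the last. Gene density was 8.02 per Mb in the former and 10.7 in the latter, and position was not separated from gene density or GC content. In the sequence between these ends, NPCs were PAD over 69.5% and thymus over 48.1%.

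PAD/PAD regions numbered 1041 and PAD/nPAD regions 1033, with median sizes of 438 and 429 kb. The 731 nPAD/PAD regions (median 243 kb) and the 730 nPAD/nPAD regions (median 281 kb) were smaller. The quartiles were 148 and 1030 kb for PAD/nPAD, and 101 and 504 kb for nPAD/PAD. Regions over 2 Mb carried 42.3% of PAD/nPAD sequence (100 regions) and 26.6% of nPAD/PAD sequence (30 regions). Single fragment ends made up 16 PAD/nPAD and 18 nPAD/PAD regions, and 404 of 731 nPAD/PAD regions held no protein-coding gene.

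The borders of the domains seldom coincided. Thymus had 1433 borders between PAD and non-PAD and NPCs 2088, and in only 5 places did both columns change between the same ends. Within 50 kb of an NPC border lay 145 thymus borders (10.1%), while 8.09% of the autosomal sequence lay that close to an NPC border. Of these 145, 86 changed in the same direction as the nearest NPC border. The median distance from a thymus border to the nearest NPC border was 495 kb.

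Domains were accordingly cut by the calls of the other cell type. Of 729 thymus PADs, 321 were PAD in NPCs throughout, 92 were non-PAD throughout and 316 were mixed, and the mixed PADs held 76.4% of thymus PAD sequence. Of 723 thymus non-PADs, 311 were PAD in NPCs throughout, 107 were non-PAD throughout and 305 were mixed. Thymus PADs and thymus non-PADs were thus divided by NPC calls in like shares. Of 725 nPAD/PAD regions with a neighbor on each side, 404 lay between PAD/PAD regions, inside a thymus PAD, and 90 between nPAD/nPAD regions, inside an NPC non-PAD. Of 1024 PAD/nPAD regions, 307 lay between PAD/PAD regions and 318 between nPAD/nPAD regions.

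Around thymus borders, the NPC share differed little next to the border, most at 100 to 400 kb, less at 400 to 700 kb, and little at the far end. The sequence per step inside thymus PADs fell from 124 Mb at the border to 36.9 Mb at 900 to 1000 kb. Smaller domains do not reach the far steps, so near and far steps cover different sets of domains. Within 100 kb inside thymus PADs NPCs were PAD over 71.3% of the sequence, and within 100 kb outside them over 69.7%. In the step from 100 to 200 kb they were PAD over 74.1% inside against 68.2% outside, in the step to 300 kb over 73.3% against 67.4%, and in the step to 400 kb over 73.9% against 66.0%. In the step from 600 to 700 kb the NPC shares were 70.2% inside and 65.5% outside. At 900 to 1000 kb from the border they were 69.9% inside and 69.1% outside. In ACs the shares were 62.1% and 53.0% next to the border and 80.2% and 21.98% at the far end, and in ESCs 62.1% and 53.9%, then 73.5% and 35.4%.

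**Figure D4:**
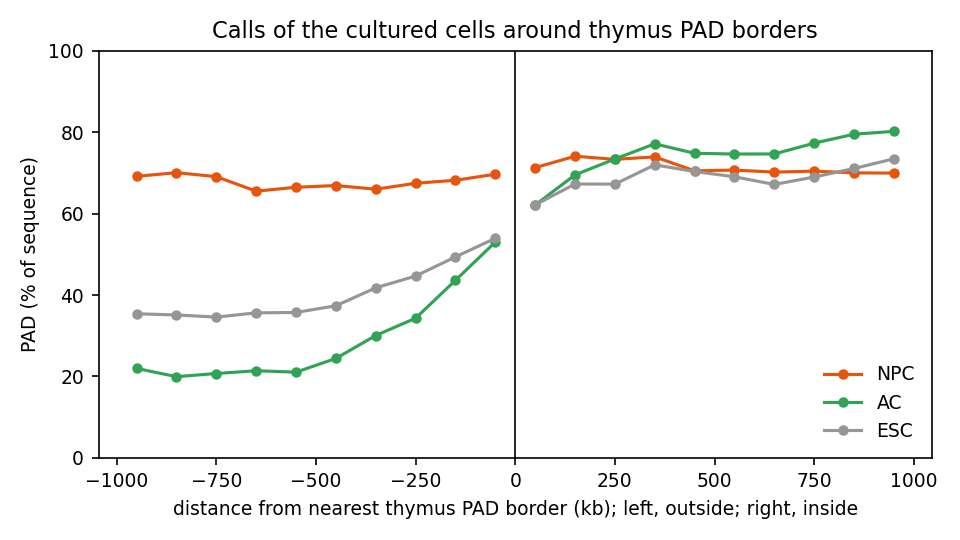
Share of sequence called PAD in NPCs, ACs and ESCs in steps of 100 kb from the nearest thymus PAD border, outside (left) and inside (right) thymus PADs. The NPC line keeps between 65.5% and 74.1% on both sides, and the AC line goes from 21.98% at the far left to 80.2% at the far right.

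The calls of ESCs and ACs were not used to form the classes. ESCs were PAD over 83.9% of PAD/PAD sequence and ACs over 89.1%, while nPAD/nPAD was PAD over 14.2% in ESCs and 7.72% in ACs. The opposed classes lay between these. PAD/nPAD was PAD over 45.2% in ESCs and 33.3% in ACs, and nPAD/PAD over 42.1% and 48.1%. In ACs, PAD/nPAD stayed below 50% on 16 of 19 autosomes and nPAD/PAD on 8. In ESCs it was the other way, with PAD/nPAD below 50% on 12 autosomes and nPAD/PAD on 15.

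With the calls of ESCs and ACs combined, 391 Mb of PAD/nPAD (45.9% of the class, 16.2% of the autosomes) were non-PAD in both, so that NPCs alone were PAD there. A further 208 Mb (24.4%) were PAD in both, so that thymus alone was non-PAD. Of nPAD/PAD, 139 Mb (41.0% of the class) were PAD in thymus alone and 105 Mb (31.2%) were non-PAD in NPCs alone. All 4 cell types had the same call over 651 Mb of PAD/PAD and 332 Mb of nPAD/nPAD.

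The 5 largest PAD/nPAD regions held between 10.5 and 30.6 protein-coding genes per Mb, against 12.8 in the class. The 9.12-Mb region on Chromosome 12 held 111 protein-coding genes, the longest of them *Eml1* (167 kb), and included 11 *Serpina* genes, which encode serine protease inhibitors, and *Bcl11b*, a transcription factor of T cell commitment. ESCs were PAD over 18.8% of it and ACs over 24.4%. An 8.83-Mb region on Chromosome 8 (117063777 to 125895044) held 93 genes from *Wwox* to *Spire2*, the longest being *Gm20388*, whose annotated transcript spans 4435 kb and runs past the last border. An 8.18-Mb region on Chromosome 4 (39882756 to 48061054) held 157 genes, with *Gabbr2*, a subunit of the GABA-B receptor, as the longest (330 kb). ESCs were PAD over 67.0% of it and ACs over 15.1%. The fifth, on the same chromosome (114143660 to 121217560), held 139 genes, with *Hivep3* the longest (324 kb), and was PAD over 98.3% in ACs.

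The PAD/nPAD regions with most genes were in part the same. The region of 7.98 Mb on Chromosome 10 (73764350 to 81746634) had 244 genes, or 30.6 per Mb, with *Pcbp3*, an RNA-binding protein gene, as the longest. It included *Aire*, which drives expression of peripheral antigens in thymic epithelium, and the translation factor gene *Eef2*. A 6.35-Mb region on Chromosome 2 (24089596 to 30440596) had 166 genes, among them 11 lipocalin (*Lcn*) genes, the receptor gene *Notch1* and the glutamate receptor subunit gene *Grin1*. Its longest gene was *Med27* (178 kb), a Mediator subunit. ESCs were PAD over 18.9% of this region and ACs over 13.8%.

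The largest nPAD/PAD regions had few named genes or clusters of near-identical ones. The first, 5.25 Mb next to the centromere of Chromosome 14, rested on 47 fragment ends, and 109 of its 111 genes have *Gm* symbols, so that placement by midpoint may be uncertain among copies. The second was a 4.84-Mb region of Chromosome 7 (57600857 to 62444971) with 806 ends and 9 genes. Its longest gene was *Nell1* (890 kb), a secreted protein of bone formation, and it also held *Slc17a6*, the vesicular glutamate transporter VGLUT2. ESCs were PAD over 2.07% of it and ACs over 8.42%, so that thymus stood largely alone.

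On Chromosome 8, a 4.05-Mb nPAD/PAD region (4403330 to 8455711) held 8 genes, with *Shcbp1* (43.6 kb) as the longest. A 3.71-Mb region (19144754 to 22850564) of that chromosome held 41 genes on 107 ends, of which 10 were alpha-defensin (*Defa*) and 8 beta-defensin (*Defb*) genes, whose products are antimicrobial peptides. Its longest gene was *Gm15308* (27.3 kb), and ACs were PAD over 87.7% of it. On Chromosome 4 (143403702 to 147202456), 3.799 Mb held 50 genes, 29 of them with *Gm* symbols and the longest being *Vps13d* (218 kb), a lipid transfer protein. A 3.29-Mb region on Chromosome 7 (21593742 to 24881889) held 80 genes on 96 ends, of which 50 were vomeronasal receptor (*Vmn*) genes. Its longest gene was *Gm6882* (143 kb).

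Of the PAD/PAD regions, the largest was 10.2 Mb on Chromosome 12 (41153745 to 51333448), with 12 genes, of which *Immp2l* (1306 kb) was the longest. It was PAD over 99.9% in ESCs and throughout in ACs. The next were on Chromosome 4 (11596519 to 20115010, 31 genes, *Mmp16* the longest), Chromosome 8 (55860436 to 63441166, 23 genes, *Galntl6*) and Chromosome 2 (12084363 to 18908004, 31 genes, *Plxdc2*). Between these in size, 7.55 Mb on Chromosome 7 (39220117 to 46765846) rested on 32 ends, with 5 genes and *Gm5591* as the longest. By contrast, the largest nPAD/nPAD region, 8.09 Mb on Chromosome 5 (114458846 to 122544576), held 120 genes, among them 10 *Oas* genes of the antiviral response and *Msi1*, an RNA-binding protein of neural precursors. Its longest gene was *Ksr2* (348 kb), and it was PAD over 3.35% in ESCs and 0% in ACs.

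The other large nPAD/nPAD regions were on Chromosome 12 (16370700 to 21504502, 31 genes, *Asap2* the longest), Chromosome 7 (70262362 to 75163781, 31 genes, *Fam189a1*), Chromosome 9 (102904938 to 107749991, 81 genes, *Cpne4*) and Chromosome 17 (23853779 to 28309858, 162 genes, *Anks1*). The Chromosome 12 region, 5.13 Mb in size, rested on 392 ends, sparser than the 140 per Mb of its class. None of the 5 largest was PAD over more than 4.71% in ESCs or 2.54% in ACs.

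T cell genes had the same share in PAD/nPAD as all genes. Of 39 genes of T cells and their precursors, 20 were PAD/nPAD (51.3%, against 51.0% of all genes), 10 PAD/PAD (25.6% against 18.3%), 8 nPAD/nPAD (20.5% against 23.2%) and 1 nPAD/PAD (2.56% against 7.44%). The PAD/nPAD members included the coreceptor gene *Cd4*, the T cell receptor zeta chain gene *Cd247*, and *Cd2*, *Cd5*, *Cd6* and *Cd27*, which encode other surface receptors of T cells. They also included the signaling genes *Zap70*, *Lat*, *Lcp2* and *Fyn*, and *Dntt*, which encodes the terminal transferase of V(D)J recombination. The transcription factor genes *Bcl11b*, *Tcf7*, *Lef1*, *Runx1*, *Runx3*, *Satb1* and *Zbtb7b* and the receptor gene *Notch1* had the same class, and *Cd8b1* completed the 20.

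At these 20 genes, 8 were PAD in ESCs and 2, *Cd8b1* and *Dntt*, in ACs. The PAD/nPAD class as a whole was PAD over 45.2% of its sequence in ESCs and 33.3% in ACs. *Bcl11b* lay 3874 kb from the nearest class border and *Tcf7* 3125 kb, whereas the midpoint of *Cd8b1* lay 4.99 kb from one and its transcript crossed it. *Cd8a*, the gene of the partner chain of the CD8 coreceptor, lay across this border in a PAD/PAD region of 78.7 kb with 11 ends. *Satb1* also crossed a border, 16.3 kb from its midpoint. The only nPAD/PAD gene of the list was *S1pr1*, the receptor for sphingosine-1-phosphate by which mature thymocytes leave the thymus, in a region of 640 kb that was non-PAD at the gene in ESCs and ACs.

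Agreeing T cell genes fell in both directions. *Cd3d*, *Cd3e* and *Cd3g*, the CD3 chains, shared a 2.45-Mb nPAD/nPAD region on Chromosome 9 with *Thy1*. *Rag1* and *Rag2*, the recombinase genes, shared a PAD/PAD region of 0.313 Mb with 43 ends, and both were non-PAD in ESCs and ACs. *Gata3*, *Il7r*, *Ikzf1* and *Tox* were PAD in all 4 cell types.

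Of 34 genes of neural precursors, 10 were PAD/nPAD (29.4% against 51.0% of all genes). Of the other 24, 12 were PAD/PAD (35.3% against 18.3%), 10 nPAD/nPAD (29.4% against 23.2%) and 2 nPAD/PAD (5.88% against 7.44%). No test was made of these counts. The PAD/nPAD members were *Nes*, the intermediate filament nestin, *Sox2*, *Pou3f3*, *Id4* and *Nfia*, which encode regulators of transcription, the Notch ligand gene *Dll1* and Notch effector genes *Hes1* and *Hes5*, the growth factor receptor gene *Egfr*, and *Gfap*, the filament of astrocytes. Of these 10, 5 were PAD in ESCs, and 2, *Egfr* and *Dll1*, in ACs. By sequence, the whole PAD/nPAD class was PAD over 45.2% in ESCs and 33.3% in ACs.

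Of the nPAD/PAD pair, *Sox11*, a transcription factor of immature neurons, lay 1057 kb from a border in a region of 2.46 Mb and was non-PAD in ESCs and ACs. The other, on Chromosome 18, crossed a border 6.24 kb from its midpoint. *Pax6*, *Vim*, *Gli3*, *Slc1a3* and *Zic1* were PAD in all 4 cell types, and *Olig1*, *Olig2*, *Msi1* and *Nr2e1* were non-PAD in all 4. *Nes* sat 13.0 kb from a class border.

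Neuronal genes had 11 of 25 members in PAD/PAD (44.0%, against 18.3% of all genes), 6 in PAD/nPAD (24%, against 51.0%) and 3 in nPAD/PAD (12%, against 7.44%), which were *Slc17a6*, *Csmd1* and *Lrp1b*. The transcripts of 13 of the 25 crossed a class border, against 4.87% of all genes, among them the long synaptic genes *Cntnap2* (2241 kb), *Dlg2* (1943 kb) and *Nrxn3* (1610 kb). Crossing goes with length, as 118 of 181 genes of 500 kb or longer crossed a border and 41.4% of them were PAD/PAD. The part of gene length in the neuronal counts was not tested. Pluripotency genes numbered 20, with 8 in PAD/nPAD (40%, against 51.0% of all genes), *Pou5f1* and *Sox2* among them. A further 4 were PAD/PAD (*Nanog*, *Dppa2*, *Dppa3*, *Dppa4*) and 2 nPAD/PAD (*Zfp42* and *Prdm14*), or 20% and 10% against 18.3% and 7.44%. Of 17 entries of thymic stroma, 8 were PAD/nPAD (47.1%, near the 51.0% of all genes), among them *Foxn1*, the transcription factor of thymic epithelium, and *Aire*, and 0 were nPAD/PAD. Of 18 housekeeping genes, 9 were PAD/nPAD, 8 nPAD/nPAD (44.4%, against 23.2% of all genes) and 1, *Sdha*, PAD/PAD. PAD/nPAD thus held about the share of all genes (51.0%), while 5.56% were PAD in thymus, against 25.7% of all genes, and 55.6% in NPCs, against 69.4%.

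**Figure D5:**
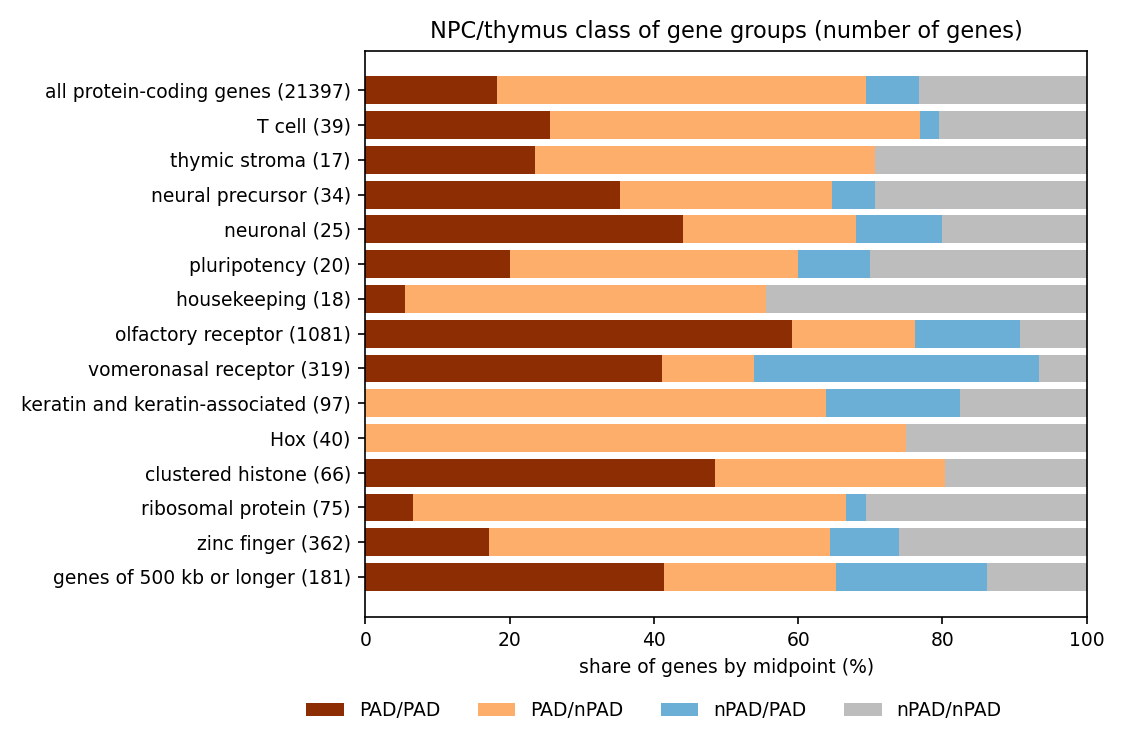
Share of genes (percent, by midpoint) in the 4 classes of NPC/thymus calls for all protein-coding genes and for gene groups, with the number of genes in parentheses. All genes have 51.0% in PAD/nPAD and 7.44% in nPAD/PAD, and the vomeronasal receptors have 12.9% and 39.5%.

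Members of clustered gene families lie next to each other and share the call of a region, so they are not independent of each other. Of 319 vomeronasal receptor genes, 131 were PAD/PAD (41.1%, against 18.3% of all genes) and 126 nPAD/PAD (39.5%, against 7.44%), so that 80.6% were PAD in thymus. Chromosome 7 held 76 of the 126, and its 3.29-Mb nPAD/PAD region with 50 *Vmn* genes rested on only 96 fragment ends. Of 1081 olfactory receptor genes, 640 were PAD/PAD (59.2% against 18.3%) and 183 PAD/nPAD (16.9% against 51.0%). A further 158 were nPAD/PAD (14.6% against 7.44%) and 100 nPAD/nPAD (9.25% against 23.2%). Chromosome 2 had 261 of its 282 olfactory receptor genes in PAD/PAD, 221 of them in a single region (85011160 to 90242811). Chromosome 14 had 0 of 39 in PAD/PAD and 30 in nPAD/PAD, Chromosome 4 had 23 of 24 in PAD/nPAD, and Chromosome 16 had 22 of 35 in nPAD/nPAD. The 1081 genes lay in 86 merged regions, and the 319 in 44.

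Other clustered families differed in class between their clusters. Of 40 annotation entries with symbols of *Hox* genes, which pattern the body axis, 30 were PAD/nPAD (75%, against 51.0% of all genes). The other 10 were nPAD/nPAD (25%, near the 23.2% of all genes). PAD/nPAD were the *Hoxa* cluster on Chromosome 6 (12 entries), *Hoxc* on Chromosome 15 (9) and *Hoxd* on Chromosome 2 (9). *Hoxb* on Chromosome 11 (10) was non-PAD in NPCs and thymus, so that the family gave 4 regions. Keratin and keratin-associated genes were PAD/nPAD in 62 of 97 (63.9%, against 51.0% of all genes), with 40 on Chromosome 11 and 17 on Chromosome 15. On Chromosome 16, 18 of 19 were nPAD/PAD, which made 18.6% of the family, against 7.44% of all genes. Of 66 clustered histone genes, 32 were PAD in thymus (48.5%, against 25.7% of all genes). Those of Chromosome 13 were PAD/PAD in 32 and PAD/nPAD in 21 of 55, and the 9 on Chromosome 3 were nPAD/nPAD.

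Families that are dispersed over many regions are read here against the 51.0% of all genes in PAD/nPAD and the 23.2% in nPAD/nPAD. Of 75 ribosomal protein genes, 45 were PAD/nPAD and 23 nPAD/nPAD, and 7 were PAD in thymus (9.33%, against 25.7% of all genes). PAD/nPAD held 49 of 77 mitochondrial ribosomal protein genes (63.6%) and 27 of 41 proteasome subunit genes (65.9%). Solute carriers, with 200 of 343 (58.3%), lay nearer to the share of all genes. Zinc finger genes, whose products bind DNA, had 171 of 362 in PAD/nPAD (47.2%) and 94 in nPAD/nPAD (26.0%), near the shares of all genes, with 53 of 87 on Chromosome 7 and 4 of 38 on Chromosome 13.

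The longest genes differed from the rest in the thymus call. Of 181 genes of 500 kb or longer, 75 were PAD/PAD (41.4%, against 18.3% of all genes) and 43 PAD/nPAD (23.8% against 51.0%). A further 38 were nPAD/PAD (21.0% against 7.44%) and 25 nPAD/nPAD (13.8% against 23.2%), although 118 of the 181 crossed a class border. Their share in thymus PADs was 62.4%, against 30.99% for genes under 10 kb, 18.996% for 10 to 50 kb, 24.8% for 50 to 200 kb and 37.5% for 200 to 500 kb. The share thus had no single direction with length, and the median gene was shorter in PAD/PAD (12.3 kb) and nPAD/PAD (10.1 kb) than in PAD/nPAD (16.2 kb) and nPAD/nPAD (16.1 kb). In NPCs the share was 65.2% for genes of 500 kb or longer and lay between 68.9% and 70.5% in the shorter groups. *Ptprd* (2073 kb, Chromosome 4), a receptor phosphatase of synapses, and *Fhit* (1612 kb, Chromosome 14) were among the longest in nPAD/PAD, and the latter lay wholly within its class. *Pde4d* (1297 kb, Chromosome 13), a cAMP phosphodiesterase, and *Cdh13* (1041 kb, Chromosome 8), a cadherin, lay wholly in PAD/nPAD regions.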

How the data were processed

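The authors cut crosslinked chromatin with ApoI and MfeI, ligated it, recut it with NlaIII and amplified fragments joined to satellite DNA. Reads were assigned by them to 4C fragment ends (mm9, no Chromosome Y), with an aligner not given in the sources used here. They sorted reads per end into classes, fitted a two-state hidden semi-Markov model to each replicate and combined replicates by majority vote. A tie, as arises when the 2 NPC replicates differ, was settled by a virtual replicate made from the pooled reads. The values deposited are the words PAD or nPAD, 1 column for each of 4 cell types, with no read counts and 0 columns per replicate. Intervals and shares were computed here in Python 3.11.15 with numpy 2.4.6 and pysam 0.24.0, and the steps were tested on simulated calls. Genes came from GENCODE vM1 (NCBIM37) by the midpoint of the longest transcript, and 21 of 21418 lay outside the called sequence. *Ptcra*, *Sox1*, *Blbp*, *Map2* and *Tfcp2l1* matched no protein-coding gene of that symbol (*Mtap2* and *Tcfcp2l1* did), and *Ccl25* has 2 entries.

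The members and gene lists of this comparison were chosen with earlier results of these data known. Named were the 5 largest regions of each class, the 3 with most genes in the opposed classes, chromosomes at the extremes, T cell and neural precursor genes with opposed calls, and examples of other lists and families. The longest genes, the remaining list members and the splits by GC content and end density were named after their values were seen.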

Additional observations from a re-analysis of the deposited data

How the results depend on the processing

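No paired analysis was possible because the consensus columns carry no replicate number, and no replicate could be left out. Shares were held to have moved outside a 95% Wilson interval over 3535 regions, and other values when they moved by over 1.5 times. The interval covers neither replicates nor reads. It treats a share of sequence as a count of equal, independent regions, although the regions adjoin and differ in size. It thus serves as a yardstick only. Of 106 alternative values, 86 stayed within these limits and 20 did not. Absorbing runs under 5 ends, leaving out gaps over 100 kb or regions of 1 end, adding Chromosome X and using the intervals as deposited moved none. Counted in fragment ends, the same call was made over 52.9%, PAD/PAD covered 37.8%, PAD/nPAD 32.5% and nPAD/nPAD 15.1%. Without the first 10 Mb, PAD/PAD covered 32.5%. With all gene types, the densities were 8.67 per Mb in PAD/PAD, 19.7 in PAD/nPAD, 9.27 in nPAD/PAD and 18.9 in nPAD/nPAD. Borders near one of the other cell type numbered 75 in NPCs and 80 in thymus within 25 kb, and 238 and 250 within 100 kb. Thymus PAD coverage of gene-free windows was 82.9% in 500-kb and 98.8% in 2-Mb windows. By transcription start site, 1 neural precursor gene and 5 neuronal genes were nPAD/PAD. When the whole transcript had to lie in 1 class, 1 gene of each of these lists was nPAD/PAD and 3 neuronal genes were PAD/nPAD.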

Other observations

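Chromosome X was left out of the classes above, and its NPC and thymus calls were the same over 58.9% of the sequence, against a product of 49.9%, with a phi coefficient of 0.18. PADs covered 48.7% of it in NPCs and 53.0% in thymus. The opposed classes were more even there than on the autosomes, with 30.1 Mb of PAD/nPAD in 89 regions and 37.0 Mb of nPAD/PAD in 93. Gene density again went with the thymus call: 3.67 protein-coding genes per Mb in PAD/PAD and 3.48 in nPAD/PAD, against 8.78 in PAD/nPAD and 7.63 in nPAD/nPAD.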
